A study of Mus musculus with 12 samples.

Results

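The T cell receptor complex and its proximal signalling machinery are described here from 43 genes. These were chosen by name and known function, with earlier results of these data known. They fall into 5 classes: 8 genes of the receptor complex and its surface partners, 6 genes of kinases and the phosphatase CD45, 11 adaptors, 7 effectors and 11 negative regulators. All 43 were matched to a single identifier among the 39179 unique gene identifiers of the table, and 40 of them had enough counts to be tested. The libraries came from primary mouse T cells of a C57BL/6 background, either wild-type (WT) or LDHA-KO, which lack lactate dehydrogenase A, an enzyme of aerobic glycolysis. There were 2 RNA libraries per genotype. Naive CD4+ T cells of both genotypes had been activated with anti-CD3 (5 µg/ml) and anti-CD28 (2 µg/ml), and cultured for 3 days under Th1 conditions with IL-2 (100 U/ml), anti-IL-4 (10 µg/ml) and IL-12 (10 ng/ml). They were then stimulated for 4 h with phorbol 12-myristate 13-acetate (PMA, 50 ng/ml) and ionomycin (1 µM) in the presence of GolgiStop, which blocks protein secretion. The sources used here do not give how the gene was deleted, in which cells, or whether replicates were separate animals. The p-values therefore cover the spread of these 4 libraries alone, and that spread may be technical. The other 8 samples of the series, from chromatin, were not analysed here.

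When the receptor on a CD4 T cell binds its ligand, the kinase LCK, held at the co-receptor CD4, phosphorylates tyrosine motifs in the CD3 and zeta chains. The kinase ZAP-70 binds these motifs and phosphorylates the adaptors LAT and LCP2, which gather phospholipase C-gamma, VAV1 and RAS activators. Diacylglycerol then activates protein kinase C-theta and, through BCL10 and MALT1, NF-kappaB. PMA mimics diacylglycerol and ionomycin raises calcium, so the final stimulation of these cells enters the pathway below the receptor, whereas the first activation went through CD3 itself.

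Library totals ranged from 919741 to 1293178 counts, so 1 count equalled 0.773 to 1.09 CPM (counts scaled to equal library size). A gene with 0 counts could hold as many as 3, which is 2.32 to 3.26 CPM, for counting error only. Levels below are CPM after TMM scaling, a correction for library composition. Changes are log2 fold changes of LDHA-KO over WT with their standard errors (SE), and a gene was called where edgeR's quasi-likelihood test gave a Benjamini-Hochberg adjusted p under 0.05 over all tested genes. Transcript lengths were not used here, so levels are compared between libraries for a gene and never between genes. Ldha itself had 1055 and 1006 counts in WT against 42 and 53 in LDHA-KO (log2 fold change -4.09 with SE 0.11, edgeR adjusted p = 2.19e-30), so both LDHA-KO libraries matched their label. All 9 markers of CD4 T and Th1 cells had counts in every library, among them Cd4 and the CD3 chains, and their summed level was 2554 and 2562 CPM in WT and 1287 and 1283 CPM in LDHA-KO, most of it Ifng in WT. Markers of other cells were at or near 0 except in a few genes. Lyz2 and Adgre1 of macrophages and Ncr1 and Klrb1c of natural killer cells had 0 counts in every library. So did Cd79b and Blk of B cells and all 4 globin genes, and Cd8a had at most 1. Others of these lists had more: Ebf1 had 14 to 20 counts per library, Cd79a 3 to 13, Klrk1 3 to 8 and Cd8b1 2 to 8. Summed, the 7 B cell markers stood at 23.7 and 23.7 CPM in WT and 20.3 and 22.0 CPM in LDHA-KO. The summed level of 7 myeloid markers was 333 and 334 CPM in WT and 397 and 412 CPM in LDHA-KO, nearly all of it Csf1r (log2 fold change 0.29, adjusted p = 0.005). That of 4 dendritic cell markers was 22.2 and 21.4 CPM in WT and 10.2 and 10.6 CPM in LDHA-KO, nearly all of it Xcr1 (log2 fold change -1.25, adjusted p = 0.00599). Of the other markers of these 2 types, Lyz2 and Adgre1 had 0 counts in every library. Cd14, Itgam, Fcgr3, Itgax, Flt3 and Siglech had at most 1 count per library, and Cd68 had 3 to 7. Csf1r and Xcr1 alone therefore do not show that such cells were present. Any part of other cells in the results below was not tested. In such bulk samples, fewer cells of a type and less RNA per cell cannot be told apart.

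No source used here gives the strand setting of the authors' counting. The ratio of mt-Nd6, a mitochondrial gene on the strand opposite mt-Cytb, to mt-Cytb was 3.72 to 6.21 across libraries. In every library mt-Nd6 thus held more counts than mt-Cytb. If reads of the opposite strand had been counted, the values of all genes below would be of antisense reads, and this was not tested. Every level, change, call and ratio below carries this limit. Of the 43 genes, 25 overlapped no other RefSeq gene on GRCm38.p6 and 18 overlapped at least 1, so the counts of these 18 are uncertain, and overlaps are named where the other gene held many counts.

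Of the 40 tested members, 13 were lower and 5 were higher in LDHA-KO, and 22 were not called. Over all 9914 tested genes, 31.0% were called in either direction, 15.6% higher and 15.4% lower. With library totals in place of TMM, 1170 of all genes were called higher and 1886 lower, and 3 and 13 of the members. The median log2 fold change of the tested members was -0.12, against -0.01 over all tested genes. The share of members called followed their counts. It was 5 of 7 members with at least 1000 counts summed over the 4 libraries (64.6% of all genes at that level were called), 11 of 23 members with 200 to under 1000 (38.4% of all genes) and 2 of 10 members with under 200 (19.9% of all genes). Within each range of counts the share of members called was near that of all genes, so the share of 45.0% over all tested members is not a result about these genes. DESeq2 gave an adjusted p for 17 of the 18 called members and called 8 of them: Cd247, Cd4, Cd2, Cd5, Zap70, Lcp2, Malt1 and Sla. These same 8 were also called by edgeR under every other normalisation, filter and replicate subset tried.

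**Figure D1:**
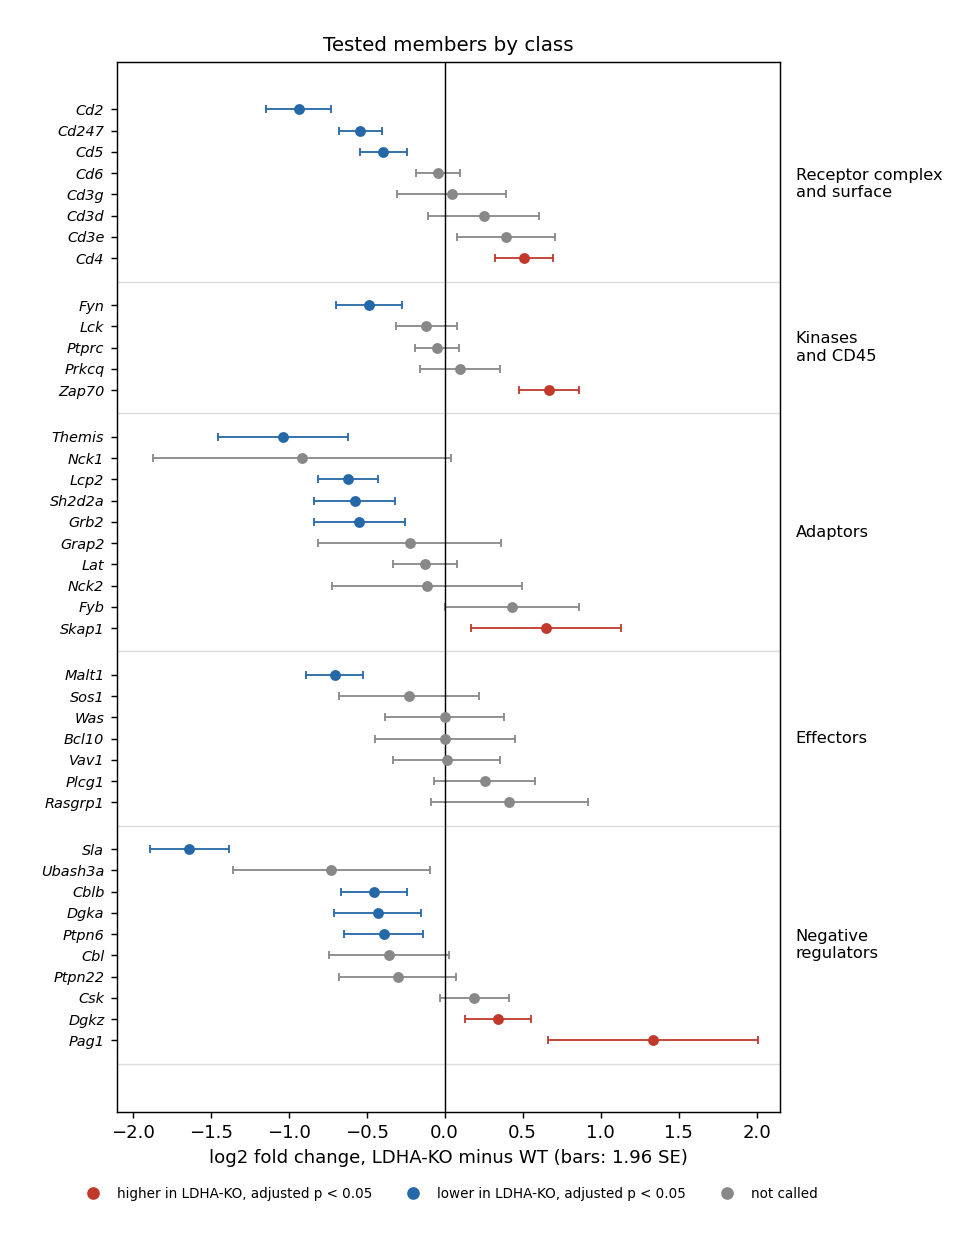
Log2 fold change of LDHA-KO over WT (horizontal axis) for the 40 tested members, grouped by class, with bars as approximate 95% intervals; red and blue points passed an adjusted p of 0.05. Every class except the effectors holds members on both sides of 0 that were called, from -1.64 for Sla to 1.34 for Pag1; bars that miss 0 on grey points did not pass after adjustment over 9914 genes.

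By class, 1 of 8 receptor and surface genes rose and 3 fell (median 0.0014 log2), 1 of 5 tested kinase and CD45 genes rose and 1 fell (median -0.05), 1 of 10 tested adaptors rose and 4 fell (median -0.39), 0 of 7 effectors rose and 1 fell (median 0.00076), and 2 of 10 tested negative regulators rose and 4 fell (median -0.37). The adaptors and the negative regulators had the lowest class medians, with 8 of 10 and 7 of 10 tested members below 0, called or not. The median over all tested genes was -0.01. Nck2, among these 8 adaptors, changed sign without WT replicate 1 (0.21). Differences between classes were not tested, since genes of a class are not replicates. A fall was recorded both among genes that carry the signal forward, such as Cd2, Cd247, Lcp2 and Malt1, and among genes that restrain it, such as Cd5, Sla and Cblb.

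To show what lies before the start sites of called members, windows of 250 upstream bases are printed for 3 called members. They are Lcp2 and Themis, which fell, and Zap70, which rose. Windows were taken before the start listed first for a gene in RefSeq on GRCm38.p6, and these 3 lie wholly before the annotated gene. Sequences run 5′ to 3′ along the gene's strand, and capitals mark GGAAG, a core bound by ETS family factors, on either strand.
Lcp2, chr11:34046678-34046927, plus strand: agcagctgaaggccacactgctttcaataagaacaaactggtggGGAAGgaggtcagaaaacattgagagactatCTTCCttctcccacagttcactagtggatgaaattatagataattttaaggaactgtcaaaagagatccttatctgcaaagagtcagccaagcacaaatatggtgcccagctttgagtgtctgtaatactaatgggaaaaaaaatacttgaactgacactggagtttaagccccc
Themis, chr10:28668110-28668359, plus strand: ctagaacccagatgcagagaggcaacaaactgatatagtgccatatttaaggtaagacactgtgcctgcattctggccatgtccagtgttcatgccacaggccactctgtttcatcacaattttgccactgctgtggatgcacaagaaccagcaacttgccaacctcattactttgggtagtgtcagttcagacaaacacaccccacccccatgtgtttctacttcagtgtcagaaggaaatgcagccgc
Zap70, chr1:36761548-36761797, plus strand: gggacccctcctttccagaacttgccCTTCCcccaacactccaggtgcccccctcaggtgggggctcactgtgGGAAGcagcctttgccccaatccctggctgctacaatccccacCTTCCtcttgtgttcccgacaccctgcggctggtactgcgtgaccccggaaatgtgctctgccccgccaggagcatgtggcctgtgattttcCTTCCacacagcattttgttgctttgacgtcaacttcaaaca
The Zap70 window held 4 such matches, that of Lcp2 held 2 and that of Themis held 0. Upstream windows were found for 35 of the 43 members, though for some RefSeq has a start further upstream of the one listed first. The windows of Cd247 and Dgkz thus lie within the gene, and that of Cd5 lies partly within it. The letters GGAAG were in 23 of the 35 windows, or 65.7%, against 63.6% of the windows of all 27025 genes matched and 69.6% of those of tested genes. It was in 5 of 9 matched members that fell and 2 of 2 that rose. The NFAT core GGAAA, which cannot coincide with GGAAG but can overlap a match of it, was in 24 of 35 members (68.6%, against 55.6% of all windows and 54.5% of those of tested genes). The RUNX motif TGTGGT was in 4, those of Lck, Trat1, Sos1 and Was, or 11.4%, which lies between the 10.5% of tested genes and the 14.2% of all windows. The AP-1 motif TGANTCA was in 0, against 6.87% of all windows and 3.83% of those of tested genes. All motifs were searched on both strands, and a match is a run of letters, not a bound site.

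The receptor complex showed unequal values among its chains. Cd247 (ENSMUSG00000005763; chromosome 1, 165779952 to 165871153) encodes the zeta chain, which carries most of the complex's signalling motifs. Its level was 692 and 690.3 CPM in WT and 487 and 466 CPM in LDHA-KO. Both LDHA-KO libraries lay below both WT libraries, a fall of 1.45-fold (log2 fold change -0.54 with SE 0.07, edgeR adjusted p = 4.26e-08). Cd247 overlaps the Pou2f1 gene model, which had 272 and 304 counts in WT against 144 and 193 in LDHA-KO. Cd247 itself had 905 and 873 counts in WT against 431 and 529 in LDHA-KO. The share of reads that belongs to Cd247 is therefore uncertain. The genes of the 3 CD3 chains lie side by side on chromosome 9, with 1.3 kb between Cd3g and Cd3d and 11.7 kb between Cd3d and Cd3e, and none was called. For Cd3e the levels were 68.9 and 64.1 CPM in WT and 76.9 and 96.0 CPM in LDHA-KO, with both LDHA-KO libraries higher (log2 fold change 0.40 with SE 0.16, edgeR adjusted p = 0.0565). Without LDHA-KO replicate 1 Cd3e was called higher (0.54, adjusted p = 0.0258). Cd3d stood at 49.0 and 57.7 CPM in WT and 63.3 and 63.4 CPM in LDHA-KO, again with no overlap between genotypes (log2 fold change 0.25 with SE 0.18, edgeR adjusted p = 0.314). The values of Cd3g overlapped, at 55.9 and 59.3 CPM in WT and 56.5 and 61.6 CPM in LDHA-KO (log2 fold change 0.04 with SE 0.18, edgeR adjusted p = 0.881). Groups that do not overlap were found for 30 of 40 tested members and 64.3% of all tested genes, so this alone marks out neither gene. Approximate 95% intervals were -0.11 to 0.60 for Cd3d and -0.31 to 0.40 for Cd3g, so changes of up to about those sizes are not shut out by these counts.

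Cd4 (ENSMUSG00000023274; chromosome 6, 124864693 to 124888247), the co-receptor that binds MHC class II and brings LCK to the complex, was the member of this class that rose. It stood at 204 and 221 CPM in WT and 314 and 293 CPM in LDHA-KO. Both LDHA-KO libraries were above both WT libraries (log2 fold change 0.51 with SE 0.09, edgeR adjusted p = 3.63e-05), a rise of 1.42-fold.

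Among the surface partners, Cd2 (ENSMUSG00000027863; chromosome 3, 101275908 to 101287939), an adhesion receptor that lowers the threshold for activation, fell most. The levels were 279 and 263 CPM in WT and 132 and 149 CPM in LDHA-KO, with the genotypes well apart (log2 fold change -0.94 with SE 0.11, edgeR adjusted p = 1.75e-09). Cd5 (ENSMUSG00000024669; chromosome 19, 10718107 to 10739026) is a scavenger-receptor family protein whose tail recruits inhibitors of the signal. It stood at 521 and 589 CPM in WT and 434 and 413 CPM in LDHA-KO and fell by 0.39 on the log2 scale (with SE 0.08, edgeR adjusted p = 8.25e-05). Cd6, a related receptor whose gene lies 50.3 kb from Cd5, was not called, at 533 and 565 CPM in WT and 505 and 557 CPM in LDHA-KO (log2 fold change -0.04 with SE 0.07, edgeR adjusted p = 0.706). Its interval of -0.18 to 0.10 is among the narrowest of the members not called. Within each library the count of Cd6 over that of Cd5 was 1.02 and 0.958 in WT and 1.16 and 1.35 in LDHA-KO.

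**Figure D2:**
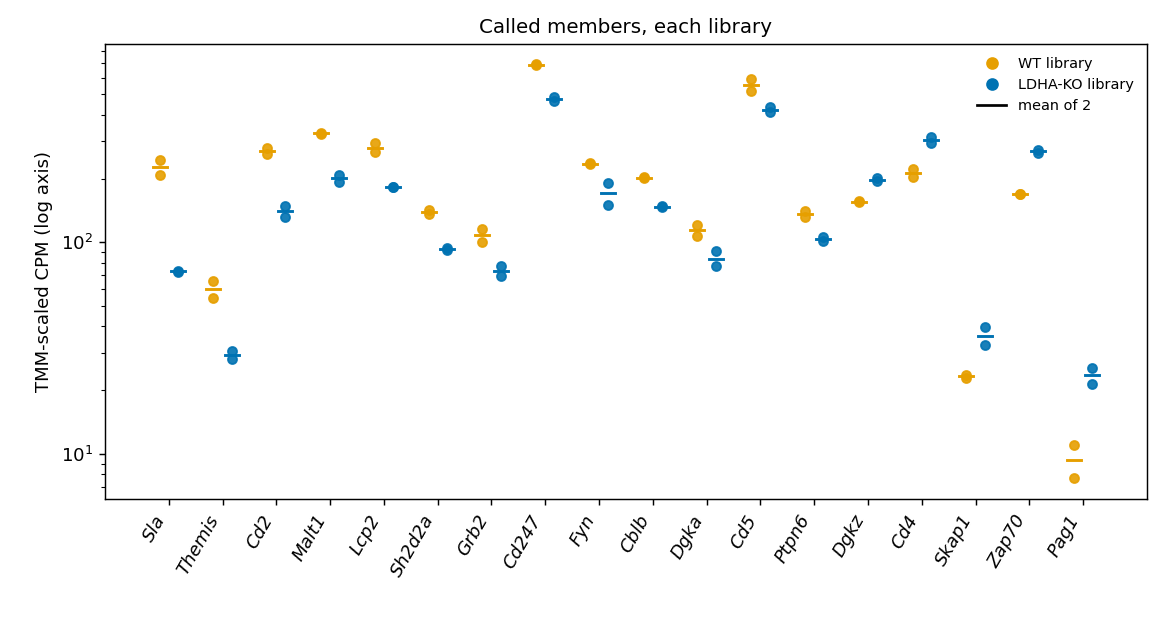
TMM-scaled CPM (vertical log axis) in each library for the 18 called members, ordered from the largest fall to the largest rise; short lines are means of 2 libraries. In each of the 18 the WT and LDHA-KO libraries do not overlap, as in 64.3% of all tested genes. The 18 were selected by a test on these same libraries, and heights are not comparable between genes.

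Of the kinases, Zap70 (ENSMUSG00000026117; chromosome 1, 36761798 to 36782821) rose and Fyn fell. Zap70 encodes the kinase that docks on the phosphorylated CD3 and zeta chains. Its level was 169.9 and 168 CPM in WT and 265 and 273 CPM in LDHA-KO. The 2 libraries of each genotype were close together and the genotypes far apart, a rise of 1.59-fold (log2 fold change 0.67 with SE 0.10, edgeR adjusted p = 7.33e-07). Fyn (ENSMUSG00000019843; chromosome 10, 39369743 to 39565381) encodes a SRC family kinase that acts beside LCK. It stood at 237 and 233 CPM in WT and 189.9 and 151 CPM in LDHA-KO, with the LDHA-KO libraries lower and further from each other (log2 fold change -0.48 with SE 0.11, edgeR adjusted p = 0.000503). Its call was lost without LDHA-KO replicate 2 (-0.30, adjusted p = 0.120) and in DESeq2 (-0.47, adjusted p = 0.0755).

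Lck, the SRC family kinase that starts the cascade, was not called. The levels were 224 and 222 CPM in WT and 214 and 199 CPM in LDHA-KO (log2 fold change -0.12 with SE 0.10, edgeR adjusted p = 0.395), with an interval of -0.31 to 0.08. Ptprc, which encodes CD45, the phosphatase that keeps SRC kinases ready to act, stood at 501 and 501 CPM in WT and 482 and 487 CPM in LDHA-KO (log2 fold change -0.05 with SE 0.07, edgeR adjusted p = 0.661), and its interval of -0.19 to 0.09 was narrow. Prkcq, which encodes protein kinase C-theta, had overlapping genotypes at 123 and 109.9 CPM in WT and 112 and 136 CPM in LDHA-KO (log2 fold change 0.10 with SE 0.13, edgeR adjusted p = 0.609). Txk, which encodes a TEC family kinase, had 3 and 1 counts in WT against 2 and 5 in LDHA-KO, too few to be tested.

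Ratios of counts within a library involve no scaling between libraries. They were taken for 13 pairs of genes chosen after their values were seen, and are given as a description, since 2 libraries against 2 cannot give an exact two-sided permutation p under 0.333. In each pair the gene with the higher log2 fold change stands first, so the direction of the ratios follows from that order. Gene length enters their size but not their change between libraries. The ratio of Zap70 to Cd247, the kinase over the chain it docks on, was 0.245 and 0.244 in WT and 0.543 and 0.586 in LDHA-KO. For Cd4 over Cd247 it was 0.295 and 0.321 in WT and 0.645 and 0.629 in LDHA-KO, and for Cd3e over Cd247 0.0994 and 0.0928 in WT and 0.158 and 0.206 in LDHA-KO. In all 3 pairs both LDHA-KO libraries lay above both WT libraries, and the uncertainty in the counts of Cd247 enters all 3. Between the SRC kinases, Lck over Fyn was 0.945 and 0.953 in WT and 1.12 and 1.32 in LDHA-KO. Zap70 over Fyn was 0.716 and 0.722 in WT and 1.39 and 1.81 in LDHA-KO.

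**Figure D3:**
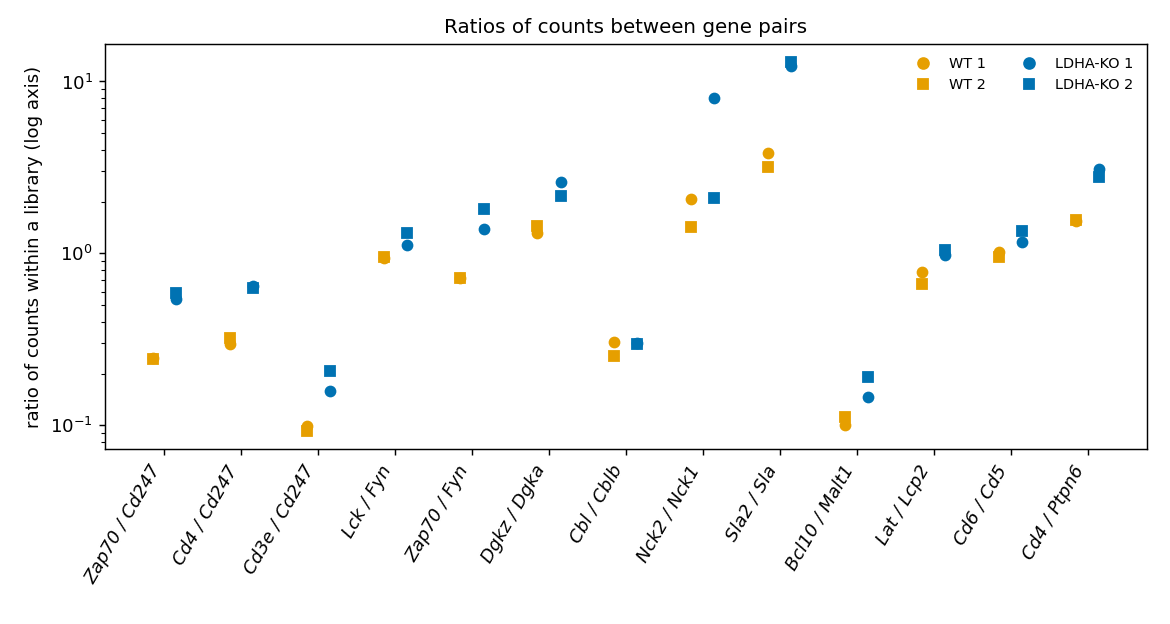
Count of the first gene over that of the second within each library (vertical log axis) for 13 gene pairs; circles and squares are replicates 1 and 2. The LDHA-KO values lie above the WT values in every pair except Cbl over Cblb, where they overlap. Pairs were chosen after the values were seen, with the gene of the higher log2 fold change first, so this direction follows from that order.

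Most adaptors had values below 0. Lcp2 (ENSMUSG00000002699; chromosome 11, 34046928 to 34092281) encodes the adaptor that links LAT to phospholipase C-gamma, VAV1 and NCK. It stood at 266 and 293 CPM in WT and 182 and 182 CPM in LDHA-KO, with both LDHA-KO libraries below both WT libraries (log2 fold change -0.62 with SE 0.10, edgeR adjusted p = 3.42e-06). The noncoding gene 4930469K13Rik, which overlaps it, had 45 and 43 counts in WT against 14 and 25 in LDHA-KO. Lat, the membrane scaffold itself, was not called, at 207 and 195 CPM in WT and 177 and 191 CPM in LDHA-KO (log2 fold change -0.12 with SE 0.10, edgeR adjusted p = 0.4, interval -0.33 to 0.08). Within each library, Lat over Lcp2 was 0.779 and 0.666 in WT and 0.975 and 1.05 in LDHA-KO.

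Themis (ENSMUSG00000049109; chromosome 10, 28668360 to 28883820), known for its role in thymocyte selection, showed the largest fall among the adaptors. Its levels were 54.3 and 65.6 CPM in WT and 30.5 and 28.2 CPM in LDHA-KO, a fall of 1.03 on the log2 scale (with SE 0.21, edgeR adjusted p = 0.000175), not called by DESeq2 (adjusted p = 0.0557). Sh2d2a (ENSMUSG00000028071; chromosome 3, 87846755 to 87855722) encodes the T cell-specific adaptor that binds LCK. It stood at 136 and 142 CPM in WT and 91.6 and 94.2 CPM in LDHA-KO (log2 fold change -0.58 with SE 0.13, edgeR adjusted p = 0.000662). DESeq2 did not call it (adjusted p = 0.0909). Grb2 (ENSMUSG00000059923; chromosome 11, 115644045 to 115708597), whose protein brings the RAS activator SOS1 to LAT, was at 100.2 and 115 CPM in WT and 68.96 and 77.5 CPM in LDHA-KO (log2 fold change -0.55 with SE 0.15, edgeR adjusted p = 0.00397). The call of Grb2 was lost without WT replicate 2 (-0.44), without LDHA-KO replicate 1 (-0.46) and in DESeq2 (-0.55).

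Skap1 (ENSMUSG00000057058; chromosome 11, 96464570 to 96759622), which with the product of Fyb links the receptor to integrin adhesion, was the adaptor that rose. It had 31 and 29 counts in WT against 29 and 45 in LDHA-KO, or 23.7 and 22.9 CPM in WT and 32.8 and 39.6 CPM in LDHA-KO (log2 fold change 0.65 with SE 0.25, edgeR adjusted p = 0.0396). This call was lost in 8 of the 10 alternatives, with values of 0.50 to 0.77. Fyb itself stood at 29.1 and 34.8 CPM in WT and 39.6 and 45.8 CPM in LDHA-KO and was not called (log2 fold change 0.43 with SE 0.22, edgeR adjusted p = 0.136). Gm2245, a gene model that overlaps Fyb, held 441 and 462 counts in WT against 423 and 484 in LDHA-KO. Fyb itself had 38 and 44 counts in WT against 35 and 52 in LDHA-KO, so the share of reads that belongs to it is uncertain. Grap2, an adaptor that joins LAT to LCP2, and the actin-linked adaptors Nck1 and Nck2 had 2 to 31 counts per library. Their log2 fold changes were -0.22, -0.91 and -0.11 (edgeR adjusted p = 0.619, 0.156 and 0.821), with SEs of 0.30 to 0.49, and the interval of Nck1 was -1.87 to 0.04. Trat1, a transmembrane adaptor, had 3 and 2 counts in WT against 4 and 6 in LDHA-KO and was not tested.

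Of the effectors, only Malt1 (ENSMUSG00000032688), the protease and scaffold of the NF-kappaB arm, was called. Its level was 329.8 and 324 CPM in WT and 193 and 207 CPM in LDHA-KO. Both LDHA-KO libraries were below both WT libraries, a fall of 1.63-fold (log2 fold change -0.70 with SE 0.09, edgeR adjusted p = 7.58e-08). Bcl10, its partner, had overlapping genotypes at 32.9 and 36.4 CPM in WT and 28.3 and 39.6 CPM in LDHA-KO, with an interval of -0.45 to 0.45 on the log2 scale. The ratio of Bcl10 to Malt1 within a library was 0.0998 and 0.112 in WT and 0.146 and 0.191 in LDHA-KO.

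The other 5 effectors stood on both sides of 0. Plcg1, which encodes the phospholipase that makes diacylglycerol and inositol trisphosphate, was at 76.5 and 59.3 CPM in WT and 89.3 and 74.8 CPM in LDHA-KO (log2 fold change 0.26 with SE 0.17, edgeR adjusted p = 0.254), and overlaps Zhx3, which had 107 to 168 counts per library. Vav1, which activates RAC, was at 57.4 and 67.2 CPM in WT and 59.9 and 65.2 CPM in LDHA-KO with an interval of -0.33 to 0.36. Was, which drives actin branching, stood at 51.3 and 46.7 CPM in WT and 48.6 and 49.3 CPM in LDHA-KO with an interval of -0.38 to 0.38. The RAS activators Rasgrp1 and Sos1 had log2 fold changes of 0.42 and -0.23 (SE 0.26 and 0.23, edgeR adjusted p = 0.228 and 0.49), from 26 to 50 counts per library.

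Among the negative regulators, Sla (ENSMUSG00000022372; chromosome 15, 66780819 to 66831829) had the largest change of all members. It encodes the SRC-like adaptor SLAP, which with CBL lowers the amount of receptor on the cell. Its levels were 209 and 244 CPM in WT and 73.5 and 72.2 CPM in LDHA-KO. Both LDHA-KO libraries lay far below both WT libraries, a fall of 3.11-fold (log2 fold change -1.64 with SE 0.13, edgeR adjusted p = 1.12e-13). Tg, which overlaps it, had 27 to 45 counts per library. Sla2, which encodes the related adaptor SLAP-2 and is not a member, was at 807 and 773 CPM in WT and 901 and 936 CPM in LDHA-KO and rose by 0.22 (SE 0.06, edgeR adjusted p = 0.00558), a call lost with library totals alone (0.14), in DESeq2 and without WT replicate 2 or LDHA-KO replicate 2. Sla2 over Sla within a library was 3.86 and 3.17 in WT and 12.3 and 13.0 in LDHA-KO.

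The CBL family of ubiquitin ligases tags activated receptors and kinases for removal. Cblb (ENSMUSG00000022637; chromosome 16, 52031230 to 52208047) stood at 203 and 201 CPM in WT and 147 and 148 CPM in LDHA-KO and fell (log2 fold change -0.45 with SE 0.11, edgeR adjusted p = 0.00123), though DESeq2 did not call it (adjusted p = 0.1098). Cbl was at 62.0 and 50.6 CPM in WT and 44.1 and 44.0 CPM in LDHA-KO and not called (log2 fold change -0.36 with SE 0.20, edgeR adjusted p = 0.17). Cbl over Cblb was 0.306 and 0.252 in WT and 0.300 and 0.298 in LDHA-KO, the only 1 of the 13 ratios whose genotypes overlapped, so the fall of Cblb was not shown to differ from the value of Cbl. Ubash3a, which encodes a phosphatase-like protein that dampens ZAP-70, was at 20.7 and 23.7 CPM in WT and 11.3 and 14.97 CPM in LDHA-KO (log2 fold change -0.73 with SE 0.32, edgeR adjusted p = 0.0834), from 10 to 30 counts per library.

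Phosphatases and the kinase CSK act on SRC kinases. Ptpn6 (ENSMUSG00000004266; chromosome 6, 124720707 to 124738709), which encodes SHP-1, stood at 132 and 141 CPM in WT and 102 and 106 CPM in LDHA-KO (log2 fold change -0.39 with SE 0.13, edgeR adjusted p = 0.0184). Its call was lost without WT replicate 2 (-0.34), without LDHA-KO replicate 1 (-0.35) or 2 (-0.41) and in DESeq2 (-0.39). Ptpn6 lies 126.0 kb from Cd4, which rose, and Cd4 over Ptpn6 was 1.55 and 1.57 in WT and 3.09 and 2.77 in LDHA-KO. Ptpn22 was not called at 52.8 and 76.7 CPM in WT and 49.7 and 54.6 CPM in LDHA-KO (log2 fold change -0.30 with SE 0.19, edgeR adjusted p = 0.245), where WT replicate 2 was the highest library, and was called lower without WT replicate 1 (-0.55, adjusted p = 0.0445). Csk, at 184 and 149 CPM in WT and 205 and 179.6 CPM in LDHA-KO, had overlapping genotypes (log2 fold change 0.19 with SE 0.11, edgeR adjusted p = 0.208). Pag1 (ENSMUSG00000027508; chromosome 3, 9687479 to 9833684), which holds CSK at the membrane, had 10 and 14 counts in WT against 19 and 29 in LDHA-KO. It rose by 1.34 on the log2 scale (with SE 0.34, edgeR adjusted p = 0.00232), from a low level of 7.65 and 11.1 CPM in WT and 21.5 and 25.5 CPM in LDHA-KO. Without LDHA-KO replicate 2 the adjusted p of Pag1 was 0.0701, and DESeq2 gave it no adjusted p. Sit1, another inhibitory membrane adaptor, had 5 and 5 counts in WT against 6 and 3 in LDHA-KO and was not tested.

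Dgka and Dgkz encode diacylglycerol kinases, which remove the messenger that PMA imitates, and had values of opposite sign. Of the same family but not members here, Dgkq was called lower (log2 fold change -0.68). Dgke (-0.71), Dgkh (-0.01) and Dgkd (0.09) were not called. Dgka (ENSMUSG00000025357; chromosome 10, 128720131 to 128745084) stood at 120.1 and 108 CPM in WT and 76.9 and 90.7 CPM in LDHA-KO (log2 fold change -0.43 with SE 0.14, edgeR adjusted p = 0.0187), and Dgkz (ENSMUSG00000040479; chromosome 2, 91932822 to 91976443) at 157 and 154 CPM in WT and 200.1 and 195 CPM in LDHA-KO (log2 fold change 0.34 with SE 0.11, edgeR adjusted p = 0.0121). Dgkz over Dgka within a library was 1.31 and 1.43 in WT and 2.60 and 2.16 in LDHA-KO, with the genotypes apart. The call of Dgka was lost without WT replicate 1 (-0.35), without LDHA-KO replicate 1 (-0.32) and in DESeq2 (-0.43). That of Dgkz was lost without WT replicate 2 (0.33), without LDHA-KO replicate 1 (0.34) or 2 (0.37), with library totals alone (0.26) and in DESeq2 (0.35). Dgka overlaps Pmel, which had 189 and 213 counts in WT against 108 and 150 in LDHA-KO. The share of reads that belongs to Dgka is therefore uncertain.

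Of 85 further genes of the pathway, 72 were tested, of which 15 fell and 6 rose, with a median log2 fold change of -0.08. This is 29.2% called, against 31.0% of all tested genes. The receptor's own constant regions were among them. Trbc2 was at 62.7 and 63.3 CPM in WT and 44.1 and 42.3 CPM in LDHA-KO (log2 fold change -0.55 with SE 0.19, edgeR adjusted p = 0.0239), Trac at 39.0 and 27.7 CPM in WT and 24.9 and 19.4 CPM in LDHA-KO (log2 fold change -0.62 with SE 0.26, edgeR adjusted p = 0.0727) and Trbc1 at 55.9 and 50.6 CPM in WT and 55.4 and 44.0 CPM in LDHA-KO (log2 fold change -0.12 with SE 0.19, edgeR adjusted p = 0.687). Trbc1 and Trbc2 are near-identical copies, so their counts are uncertain, and Trbc2 lost its call in DESeq2 and when any library was left out.

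Among the largest falls called in this list, as log2 fold changes, were those of Sh2d1a (-1.20, edgeR adjusted p = 0.0137), which encodes the adaptor SAP, the small GTPase gene Rap1b (-1.04, adjusted p = 4.73e-14) and the diacylglycerol kinase gene Dgkq (-0.68, adjusted p = 0.0114). Rap1b, whose product acts in integrin adhesion, stood at 696 and 701 CPM in WT and 382 and 305 CPM in LDHA-KO, with both LDHA-KO libraries lower. It was called in every alternative, though it has processed copies elsewhere in the genome and its counts are uncertain. Sh2d1a lost its call without WT replicate 2 or LDHA-KO replicate 1, and Dgkq in DESeq2 and without WT replicate 1 or LDHA-KO replicate 2.

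Among the largest rises were those of Mapk3 (0.72), which encodes ERK1, Evl (0.41), an actin regulator gene, Traf6 (0.40) and Rac2 (0.35), with edgeR adjusted p = 0.0331, 0.0261, 0.0401 and 0.00725. Each of these 4 calls was lost in 3 to 8 of the 10 alternatives, DESeq2 among them.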

How the data were processed

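RNA was sequenced in 4 libraries, 2 per genotype. The authors deposited counts of reads per Ensembl gene ID, not normalised. The submitters' processing notes list HTSeq 0.6.0 and STAR 2.3.0e beside Trimmomatic 0.33, Bowtie2 2.2.6 and FastQC 0.11.2, without saying which made which file, and build mm10 (GRCm38). No source used here gives the annotation release, the strand setting or the treatment of reads with several positions. Table columns name a genotype and number but no assay, and were taken as the RNA libraries because they hold counts per gene.

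Of 43374 rows, 4195 repeats with identical values were removed, which left 39179 IDs. Symbols came from an Ensembl table, and positions, overlaps and upstream sequences from RefSeq (GRCm38.p6), matched by symbol. Counts were tested with edgeR 4.0.16 in R 4.3.3 (quasi-likelihood F-test, TMM, default filter with minimum count 10 and minimum total 15, genotype as the single factor, Benjamini-Hochberg adjustment over 9914 genes). SEs were derived from the F statistic, and the common dispersion was 0.00163. Replicates differed by more than counting noise (chi-square over genes, p = 5.82e-28 in WT and 3.64e-54 in LDHA-KO) and were kept as 2 each. Alternatives were library totals alone, RLE size factors, DESeq2 1.42.0, no filter, CPM above 1 in at least 2 libraries, each library left out, and a replicate block. The genes and lists were chosen with earlier results of these data known. Named were all called members, the CD3 chains, Cd4, Lck, Zap70, Lat and Lcp2, members too low to test, and the 5 largest called changes each way in the wider list, of which some are not reported here; other members are named for completeness. For 1 intended entry of the wider list no gene matched and it was dropped.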

Additional observations from a re-analysis of the deposited data

How the results depend on the processing

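Of 395 values of single members under the 10 alternatives, 364 stayed on the same side of the test's threshold, 29 lost the call and 2 gained it; 8 of the 18 member calls held throughout. No called member changed sign, but 20 values of 7 members that were not called did (Cd3g, Cd6, Prkcq, Nck2, Vav1, Was and Bcl10), from fold changes of -0.11 to 0.10 on the log2 scale to between -0.28 and 0.21, so no direction can be read for these 7; with library totals alone, 4 of them changed sign. DESeq2 called 516 genes higher and 415 lower over all genes (1549 and 1527 in edgeR). It called 2 and 6 members (5 and 13), and 1 and 4 genes of the wider list (6 and 15). DESeq2 gave an adjusted p for 6731 genes, 35 members and 63 wider genes, against 9914, 40 and 72 in edgeR. The cause of the lower counts was not tested. Leaving out each library in turn gave 1018 to 1231 genes higher and 955 to 1208 lower, 2 to 5 members higher and 10 to 13 lower, and 3 to 5 wider genes higher and 9 to 12 lower, with the lowest counts of all genes without LDHA-KO replicate 2; the genotype left with 1 library was assumed to vary like the other. With library totals alone, 3 members rose, and 2 wider genes rose and 23 fell; the calls over all genes were 1170 higher and 1886 lower. Without a filter, 3 wider genes rose. The deviations of same-numbered libraries had a correlation of -0.028 over 9914 genes. Counting noise enters these deviations, so this value does not show whether same-numbered libraries shared an animal or a day. With the replicate block, 4 members were higher and 13 lower, and 1397 and 1406 of all genes, with Skap1 the only member call lost. Depth limits the members under 200 summed counts, where SEs were 0.22 to 0.49.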
